A study of Homo sapiens with 2 samples.

Results

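ID1, ID2, ID3 and ID4 are the 4 members of the inhibitor of DNA binding family, and they were taken by symbol from the 33538 genes of the count tables. Single-cell RNA sequencing was available for 2 libraries of human embryonic stem cells (hESCs) of the H1 line, a widely used established line, and both had been given BMP4 at 50 ng/ml for 48 h. The WT library came from H1 cells that the study calls wild type, with no edit stated. The GATA3 KO library came from KO-GATA3-06, a line grown from a single edited H1 cell that also carries a doxycycline-inducible SpCas9 cassette at the AAVS1 locus, so clone, cassette and loss of GATA3 cannot be told apart. With 1 library per genotype there was no test of any difference, every interval below is a 95% interval for counting error only, and each ratio compares these libraries rather than the genotypes.

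ID proteins hold a helix-loop-helix domain but no region that binds DNA. They pair with the E proteins TCF3, TCF4 and TCF12, keep them from DNA and so restrain lineage-specific transcription. Their genes are direct targets of BMP signalling: the ligand brings together type I and type II receptors, these phosphorylate SMAD1, SMAD5 and SMAD9, and the phosphorylated SMADs enter the nucleus with SMAD4. ID transcripts are for that reason commonly read as a measure of how strongly a cell responds to BMP. The question put to the data was whether the family moved together between the libraries and over single cells, and whether ID1 departed from the other members in cells grouped by SOX2, a pluripotency factor, MIXL1, a primitive streak factor, or TFAP2A, a factor of amnion and trophectoderm.

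The 250 bases before the RefSeq start of each gene are shown because the members moved together over cells and yet differed between libraries. They come from the build GRCh38.p14 and are given in the direction of transcription. The window of ID1 reaches a few bases into its GENCODE transcript, and that of ID2 is not shown because it lies within a longer ID2 transcript that starts further upstream. Capitals mark 3 motifs searched on both strands, TATAAA (the TATA box), CCAAT (the CCAAT box, ATTGG on the other strand) and GTCT (the short SMAD-binding element, AGAC on the other strand). In ID1 TATA box matches on both strands overlap each other and are followed directly by AGAC, which together make the longest run of capitals.

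ID1, chr20:31605039-31605288, plus strand: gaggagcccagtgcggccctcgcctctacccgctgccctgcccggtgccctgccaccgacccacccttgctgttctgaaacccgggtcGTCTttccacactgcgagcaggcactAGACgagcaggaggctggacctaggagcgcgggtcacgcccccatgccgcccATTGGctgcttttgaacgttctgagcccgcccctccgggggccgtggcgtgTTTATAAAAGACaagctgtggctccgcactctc
ID3, chr1:23559502-23559751, minus strand: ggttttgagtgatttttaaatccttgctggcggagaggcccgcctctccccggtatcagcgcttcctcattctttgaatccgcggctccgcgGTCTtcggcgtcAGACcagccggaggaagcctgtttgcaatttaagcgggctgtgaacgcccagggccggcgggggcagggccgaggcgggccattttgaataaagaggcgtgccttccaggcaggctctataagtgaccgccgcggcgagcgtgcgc
ID4, chr6:19837120-19837369, plus strand: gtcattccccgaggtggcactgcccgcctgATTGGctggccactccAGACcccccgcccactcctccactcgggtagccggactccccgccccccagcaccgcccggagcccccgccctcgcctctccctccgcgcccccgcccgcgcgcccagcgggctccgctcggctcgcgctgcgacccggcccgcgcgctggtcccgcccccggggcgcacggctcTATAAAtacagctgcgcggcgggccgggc

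All 4 windows held GTCT, as did 77.5% of the 35116 windows of this length in the table, so this match sets no member apart. TATAAA was present before ID1 and ID4 and absent before ID2 and ID3 (10.7% of all windows). CCAAT was present before ID1, ID2 (3 matches) and ID4 and absent before ID3 (32.0% of all windows). The longer GC-rich SMAD element GGCGCC was in none of the 4 (16.4% of all windows). ID1 and ID4 held exact matches of both box motifs and ID3 of neither. Only exact matches were counted, so a near match such as TATAAG close to the end of the ID3 window is not among them. Absence here is therefore not absence of a like element, and no link between motifs and the ratios of the members was tested.

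The data comprised 3802 deposited cells of WT and 6221 of GATA3 KO. Of these, 2519 (66.3%) and 4450 (71.5%) had at most 7500 detected genes and at most 25% mitochondrial counts and were kept, with medians of 44415 and 43132 unique molecular identifiers (UMIs, each counting 1 captured transcript) per cell. Only 8 cell barcodes were found in both libraries. GATA3 itself was at 12.7 counts per 1000000 UMIs (CPM, interval 12.0 to 13.4) in WT and 10.9 CPM (10.5 to 11.4) in GATA3 KO. The study describes frameshifts in both alleles of the edited line, with exons fused in 1 of them. Tags at the 3′ end need not report on such edits, so this level checks neither label. SOX2 rose from 149.5 to 388.6 CPM, TFAP2A from 16.7 to 37.7 CPM, and MIXL1 fell from 135.8 to 4.0 CPM, so the libraries held different mixtures of cells. From summed UMIs, more cells with a transcript and more transcript per cell cannot be told apart.

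ID1 was the member that differed most. It was at 466 CPM (461 to 470) in WT and at 1046 CPM (1041 to 1051) in GATA3 KO, a log2 ratio of 1.17 (1.15 to 1.18), or 2.25-fold. This was rank 64 from the top of the 5529 genes of at least 20 CPM in either library. Among those genes 2.41% were at least 2-fold higher in GATA3 KO and 1.99% at least 2-fold lower, and the median log2 ratio was 0.07. Over all kept cells ID1 was the only member past 2-fold in either direction.

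ID2 was at 115 CPM (113 to 117) in WT and 145 CPM (143 to 147) in GATA3 KO, a log2 ratio of 0.33 (0.30 to 0.36). ID3 differed in the opposite direction: it stood at 991 CPM (985 to 998) in WT but only at 787 CPM (783 to 791) in GATA3 KO, and its log2 ratio was -0.33 (-0.34 to -0.32). ID4 was at 81.0 CPM (79.2 to 82.8) and 86.8 CPM (85.4 to 88.2), with a log2 ratio of 0.10 (0.06 to 0.14) that lay close to the median of all genes and turned to -0.05 when all deposited cells were counted. So between these libraries ID1 and ID2 were higher in GATA3 KO, ID3 was lower, and ID4 differed least.

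**Figure D1:**
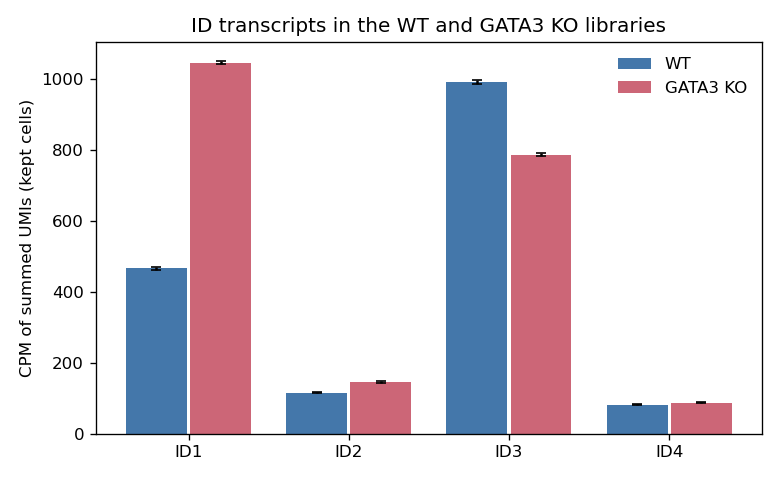
Level of each ID gene in CPM of summed UMIs over the kept cells of the WT (blue) and GATA3 KO (red) libraries, with 1 bar per library and bars of error showing the 95% Poisson interval. ID1 stood at 466 CPM in WT and 1046 CPM in GATA3 KO, while ID3 was the taller bar in WT at 991 CPM.

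The family as a whole contributed 1653 CPM in WT and 2065 CPM in GATA3 KO, a log2 ratio of 0.32 (0.31 to 0.33). Without ID1 the remaining sum was 1188 CPM in WT and 1019 CPM in GATA3 KO, a log2 ratio of -0.22 (-0.23 to -0.21), so ID1 alone set the sign of the family's sum. The make-up of the family changed with it. ID3 gave 60.0% of all ID UMIs in WT and 38.1% in GATA3 KO, and ID1 gave 28.2% and 50.7%. ID2 (6.97% and 7.03%) and ID4 (4.90% and 4.20%) kept small shares in both.

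The departure of ID1 was measured as the quotient of its UMIs to those of ID2, ID3 and ID4, which does not depend on how a library is scaled. The quotient was 0.392 in WT and 1.03 in GATA3 KO, a log2 ratio of 1.39 (1.37 to 1.41), or 2.62-fold. Against single members the departure was 1.50 for ID3 (1.48 to 1.52), 1.07 for ID4 (1.03 to 1.11) and 0.83 for ID2 (0.80 to 0.87). ID1 therefore exceeded each of the other members on this scale, by the most against ID3 and by the least against ID2.

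The per-cell distributions were compared after each cell had been thinned to 10000 UMIs, which left 2173 WT and 4038 GATA3 KO cells and set aside 346 and 412 shallower cells. ID1 had a mean of 4.60 UMIs per cell in WT and 10.2 in GATA3 KO. Its median rose from 4 to 7 UMIs, and the 10% of cells with the most ID1 had at least 10 UMIs in WT and 24 in GATA3 KO. The difference ran through the whole distribution: 7.73% of WT and 3.12% of GATA3 KO cells had no ID1 UMI, and 25% of cells had at most 2 and 3 UMIs. The Fano factor, the variance divided by the mean, which is 1 for pure counting noise, was 3.13 in WT and 8.50 in GATA3 KO. The Fano factor tends to rise with the mean and moved with depth, to 5.29 and 16.3 after thinning to 20000 UMIs.

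ID3 had a mean of 9.86 UMIs per cell in WT and 7.64 in GATA3 KO, with medians of 8 and 5. Its Fano factor was 7.18 in WT and 7.12 in GATA3 KO although its mean was lower in GATA3 KO. ID2 had means of 1.14 and 1.39 UMIs with Fano factors of 1.63 and 1.95. ID4 had means of 0.811 and 0.861 UMIs with Fano factors of 2.44 and 2.41. The 10% of cells with the highest counts held 48.9% of the UMIs of ID4 in WT and 50.2% in GATA3 KO, the largest shares of the 4 members. They held 36.5% and 36.8% for ID2, and 28.1% and 30.6% for ID1. Such a share rises as the mean count falls, so part of the gap to ID1 reflects the low counts of ID4.

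**Figure D2:**
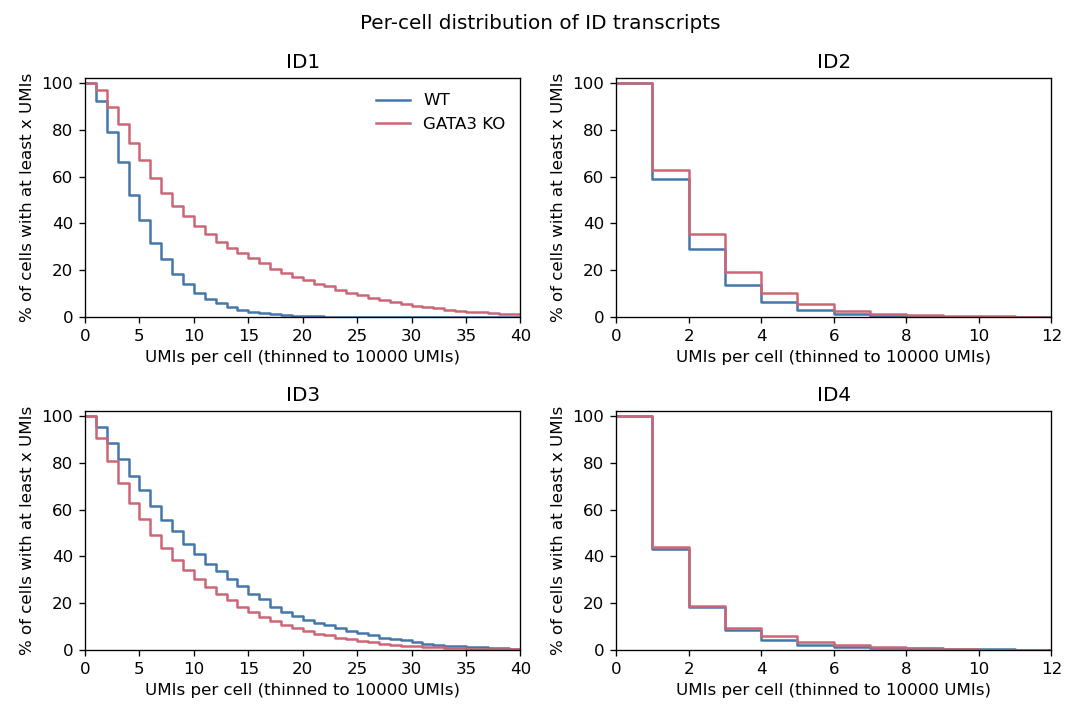
Share of cells (y axis, %) with at least the number of UMIs on the x axis, per ID gene, after thinning each cell to 10000 UMIs, in WT (blue, 2173 cells) and GATA3 KO (red, 4038 cells). The ID1 curves part over the whole range, with medians of 4 and 7 UMIs, the ID3 curves part in the other direction and the ID4 curves nearly coincide.

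ID1 was detected, with at least 1 UMI after thinning, in 92.3% of WT cells (Clopper-Pearson interval 91.1 to 93.4) and 96.9% of GATA3 KO cells (96.3 to 97.4). Before thinning the shares were 96.6% and 97.1% of kept cells. ID2 was detected in 58.9% and 62.9% of thinned cells, a difference of 4.0 percentage points (1.43 to 6.58). ID3 was detected in 95.4% and 90.8%, a difference of -4.59 points (-5.85 to -3.28), so its share of cells was lower in GATA3 KO. ID4 was detected in 43.2% and 43.96%, and its difference of 0.75 points had an interval that held 0 (-1.87 to 3.35).

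Nearly every cell held some ID transcript. Only 13 of 2173 WT cells (0.598%) and 26 of 4038 GATA3 KO cells (0.644%) had none of the 4 after thinning, and 27.6% and 31.3% had all 4. Because these cultures held no cell type known to lack ID transcripts, the share of such UMIs that came from free RNA in the droplets could not be measured, and detection of ID1 or ID3 in a cell is not by itself evidence that the cell expressed it.

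Within single cells the family varied together. Over thinned cells the Spearman correlation of ID1 and ID3 was 0.47 in WT (n = 2173) and 0.69 in GATA3 KO (n = 4038). Among the 3483 genes found in at least 25% of thinned cells of both libraries, ID3 ranked 1 by its correlation with ID1 in each library, and ID1 ranked 1 by its correlation with ID3. The median correlation of ID1 with all those genes was -0.0088 in WT and -0.0014 in GATA3 KO. All cells of a library share its preparation and have equal depth after thinning, so these values describe the 2 libraries and carry no p-value.

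The other pairs followed at lower values, which also reflect the lower counts of ID2 and ID4. ID1 and ID2 correlated at 0.29 in WT and 0.48 in GATA3 KO, and ID1 and ID4 at 0.30 and 0.44. ID2 and ID3 stood at 0.30 and 0.43, ID3 and ID4 at 0.33 and 0.39, and ID2 and ID4 at 0.22 and 0.32. Over all thinned cells all 6 pairs were higher in the GATA3 KO library, but the libraries held different mixtures of cells. Correlations also rise with counts, and ID1 had more UMIs per cell in GATA3 KO while ID3 had fewer. Within cells that had SOX2 only, ID1 and ID3 correlated at 0.33 in 916 WT cells and 0.57 in 3087 GATA3 KO cells, and ID3 and ID4 at 0.20 and 0.21. In TFAP2A cells without MIXL1, ID3 and ID4 stood at 0.40 in WT and 0.38 in GATA3 KO, so not every pair was higher within groups.

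The gene outside the family that most often shared its pattern was BAMBI, a decoy receptor that dampens BMP and TGF-beta signals. By the lower of its correlations in the libraries it ranked 2 for ID1 (0.36 in WT and 0.52 in GATA3 KO), 3 for ID2 (0.26 and 0.36), 3 for ID3 (0.39 and 0.50) and 2 for ID4 (0.30 and 0.40). The 5 genes most like ID1 were ID3, BAMBI, the long noncoding RNA PCAT14, NTS, which encodes neurotensin, and KRT18, a keratin of simple epithelia. Those of ID3 were ID1, NTS, BAMBI, KRT18 and GSTO1. Those of ID2 were ID3, ID1, BAMBI, ID4 and SLC2A3, and those of ID4 were ID3, BAMBI, PCAT14, ID1 and RHOBTB3. Although they varied with ID1 over cells, these genes did not share its ratio between libraries: the log2 ratio was -0.33 for BAMBI, -0.52 for PCAT14, -1.85 for NTS and 0.01 for KRT18.

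The share of ID1 among a cell's own ID UMIs also differed between the libraries. A limit of 20 ID UMIs, which counted ID1 itself, left out 284 WT and 595 GATA3 KO cells. In cells with at least 20 ID UMIs before thinning, the median share was 28.0% over 1889 WT cells, and leaving out 10% of cells at each end it ran from 14.3% to 48.4%. It was 50.7% over 3443 GATA3 KO cells, and ran from 34.3% to 67.7% in the same way. Of the GATA3 KO cells, 95.8% lay above the WT median. The distributions still overlapped, since the 10% of WT cells with the highest share began near the middle of the GATA3 KO cells.

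ID1 was next compared between cells with like counts of the other members. In cells with 0 to 1 thinned UMIs of ID2, ID3 and ID4 together, ID1 had a mean of 2.39 UMIs in WT (2.15 to 2.65, 150 cells) and 3.34 in GATA3 KO (3.18 to 3.51, 471 cells), a 1.40-fold difference. In cells with 4 to 7 such UMIs the means were 3.20 and 6.11 (1.91-fold). In cells with 16 or more they were 7.28 (7.07 to 7.50, 607 cells) and 21.8 (21.5 to 22.1, 883 cells), or 3.0-fold. The excess of ID1 in GATA3 KO was thus smallest in cells with few other ID transcripts and grew with each step of their count. The bins were built from genes that varied with ID1 more strongly in GATA3 KO (ID1 and ID3 at 0.69, against 0.47 in WT). They also held different shares of the libraries: 6.90% of WT and 11.7% of GATA3 KO cells in the lowest bin, and 27.9% and 21.9% in the highest. The bins therefore do not compare like cells, and the source of the growing excess was not tested.

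**Figure D3:**
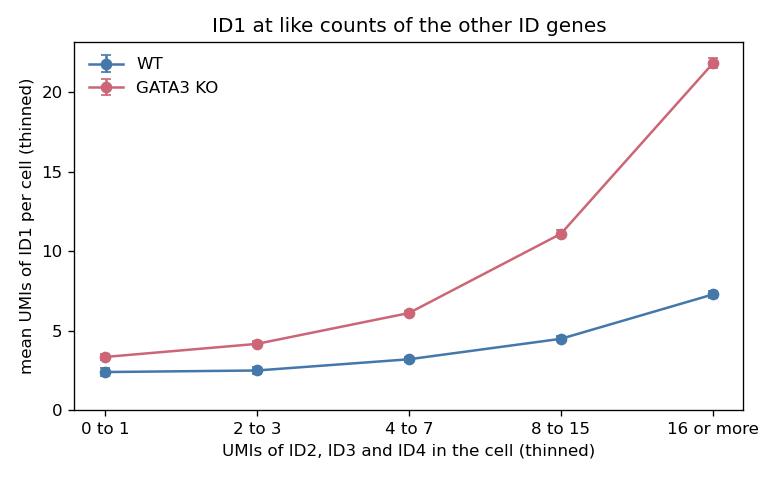
Mean number of ID1 UMIs per cell (y axis, after thinning to 10000 UMIs) in cells binned by their summed UMIs of ID2, ID3 and ID4 (x axis), in WT (blue) and GATA3 KO (red), with 95% Poisson intervals. The lines part from 2.39 and 3.34 UMIs in the lowest bin to 7.28 and 21.8 UMIs in the highest. The bins held different shares of the cells of each library.

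Cells were then split by the grouping genes into 5 groups that do not overlap. Among the thinned cells, SOX2 was the only detected gene of the 3 in 916 WT cells (42.2%) and 3087 GATA3 KO cells (76.4%). TFAP2A was detected without MIXL1 in 191 (8.79%) and 710 (17.6%), MIXL1 without TFAP2A in 632 (29.1%) and 69 (1.71%), and both in 82 (3.77%) and 17 (0.421%). None of the 3 was found in 352 (16.2%) and 155 (3.84%). The groups matched their names in part. Leaving out the gene that defines the group, the summed level of 5 primitive streak markers in MIXL1 cells without TFAP2A was 477 CPM in WT but 121 CPM in GATA3 KO, where MESP1 had no UMI, so these cells were not alike in the libraries. The 5 amnion or trophectoderm markers other than TFAP2A summed to 171 and 156 CPM in TFAP2A cells without MIXL1, against 11.7 and 14.5 CPM in SOX2-only cells, but KRT7 did not follow (7.32 and 7.21 CPM against 6.71 and 9.17 CPM). These TFAP2A cells were not alike in the libraries either. Their 5 primitive streak markers other than MIXL1 summed to 70.3 CPM in WT and 13.1 CPM in GATA3 KO, and 4 endoderm markers to 32.4 and 2.56 CPM. The 5 pluripotency markers other than SOX2 summed to 1620 CPM or more in all 5 groups of both libraries, and to more in GATA3 KO than in WT in each group. SOX2-only cells were not alike either: this sum was 2119 CPM in WT and 2803 CPM in GATA3 KO. NANOG (77.6 and 56.2 CPM) and DPPA4 (344 and 274 CPM) went the other way. Their 5 primitive streak markers other than MIXL1 summed to 21.1 and 4.50 CPM.

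In both libraries every member was highest in a group with TFAP2A detected. ID1 was at 840 CPM in WT TFAP2A cells without MIXL1 and 359 CPM in WT SOX2-only cells, a log2 ratio of 1.23 (1.18 to 1.27), and at 2099 and 758 CPM in the same groups of GATA3 KO, a log2 ratio of 1.47 (1.45 to 1.48). ID2 (1.27 and 1.39) and ID3 (1.29 and 1.41) showed differences of like size. ID4 was the member most tied to TFAP2A cells, with 235 CPM against 53.4 CPM in WT (log2 ratio 2.12, 2.03 to 2.21) and 235 against 49.9 CPM in GATA3 KO (2.21, 2.16 to 2.26). MIXL1 cells without TFAP2A lay between: over SOX2-only cells, log2 ratios in WT were 0.30 for ID1, 0.57 for ID2, 0.75 for ID3 and 0.15 for ID4. Thus ID3 was the member with the largest step between SOX2-only and MIXL1 cells of WT, and ID4 the one with the smallest.

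ID1 was higher in GATA3 KO in each of the 5 groups. It rose from 359 to 758 CPM in SOX2-only cells (log2 ratio 1.08, 1.05 to 1.10), from 840 to 2099 CPM in TFAP2A cells without MIXL1 (1.32, 1.28 to 1.36) and from 442 to 1209 CPM in MIXL1 cells without TFAP2A (1.45, 1.40 to 1.50). In cells with both it went from 598 to 2052 CPM (1.78, 1.69 to 1.87) and in cells with none of the 3 from 539 to 1648 CPM (1.61, 1.57 to 1.65). The other members had lower ratios. ID3 had log2 ratios of -0.15, -0.03, -0.32, -0.06 and -0.09 in the same order. ID4 lay between -0.11 and 0.02 in the 4 groups with a detected gene, and at 0.42 (0.30 to 0.54) in cells with none of the 3. ID2 was the closest to ID1, with ratios from 0.39 (0.33 to 0.44) in SOX2-only cells to 0.88 (0.67 to 1.08) in cells with both.

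The departure of ID1 from the sum of the others was therefore present in each group. It was lowest in SOX2-only cells at 1.16 (1.13 to 1.19), then 1.29 (1.24 to 1.33) in TFAP2A cells without MIXL1, 1.57 (1.52 to 1.63) in cells with none of the 3, 1.65 (1.58 to 1.72) in MIXL1 cells without TFAP2A and 1.72 (1.60 to 1.84) in cells with both. The neighbours 1.57, 1.65 and 1.72 in this order had overlapping counting intervals, and the last group held only 17 GATA3 KO cells. The median share of ID1 per cell ran from 25.3% to 31.0% over the groups in WT and from 50.0% to 52.1% in GATA3 KO.

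**Figure D4:**
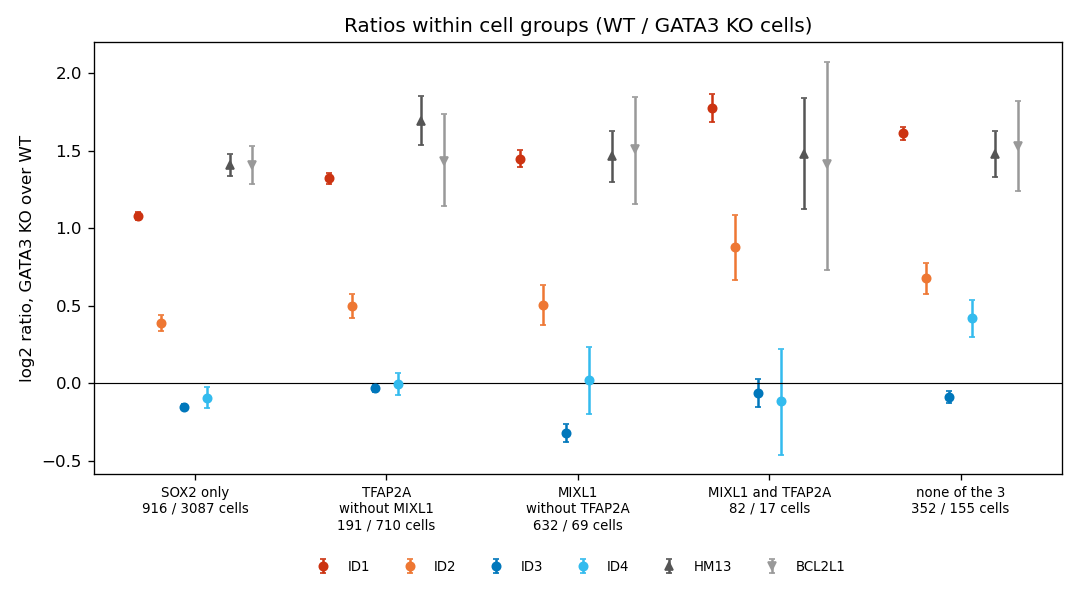
Log2 ratio of CPM in GATA3 KO over WT (y axis) of the 4 ID genes and of the ID1 neighbours HM13 and BCL2L1 within 5 groups of cells by detected SOX2, MIXL1 and TFAP2A (x axis, numbers of cells below), with 95% counting intervals. ID1 lay between 1.08 and 1.78 in all groups, while ID3 stayed between -0.32 and -0.03. In SOX2-only cells ID1 (1.08) was below HM13 and BCL2L1 (1.41 each). In cells with MIXL1 and TFAP2A it (1.78) was above them (1.48 and 1.41) but within their wide intervals.

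The simple splits gave the same for ID1. Its departure was 1.25 in cells with SOX2 detected and 1.54 without, 1.67 with MIXL1 and 1.28 without, and 1.37 with TFAP2A and 1.40 without. In cells with GATA3 detected (215 WT and 286 GATA3 KO cells) it was 1.47 (1.42 to 1.51), and in the rest 1.37 (1.35 to 1.39). The other members were not level in every split. In cells without SOX2 the log2 ratio was 1.97 for ID1, 1.06 (1.01 to 1.11) for ID2, 0.26 for ID3 and 1.13 (1.07 to 1.18) for ID4. To set the shares of the 5 groups equal, the group levels of GATA3 KO were weighted by the WT shares. The 69 GATA3 KO cells that had MIXL1 without TFAP2A were thus given the WT share of 29.1%. On that scale the log2 ratio was 1.37 for ID1, 0.53 for ID2, -0.17 for ID3 and 0.07 for ID4, in place of 1.16, 0.33, -0.33 and 0.09 over the same cells unweighted. With equal shares of the 5 groups the ratios of ID1, ID2 and ID3 were thus higher, and ID3 was still below 0. Cells of a group were not alike in the libraries, so equal shares did not make the mixtures of cells equal.

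The genes beside ID1 on chromosome 20 moved with it. ID1 lies at chr20:31605283-31606515 on the plus strand (GRCh38), and 4 other genes of at least 20 CPM start within 500 kb. HM13, which encodes signal peptide peptidase and starts 90.9 kb upstream, went from 42.5 to 115.8 CPM (log2 ratio 1.42). BCL2L1, which encodes the anti-apoptotic BCL-XL and starts 119 kb downstream, went from 11.1 to 34.5 CPM (1.56). TPX2, a spindle assembly factor 134 kb downstream, went from 86.1 to 156.7 CPM (0.86). PDRG1, 347 kb downstream, was nearly level at 27.9 and 30.9 CPM (0.14). BCL2L1 reached 20 CPM in GATA3 KO alone. Over genes with a mean of at least 20 CPM in the libraries, the median was 1.14 for these 4 (0.86 without BCL2L1), 0.26 for the 23 from 0.5 to 5 Mb away and 0.19 for the 120 on the rest of the chromosome.

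The neighbours of the other members lay nearer to 0 for the most part. ID3 (chr1:23557926-23559501, minus strand) had 8 with such a mean, with a median log2 ratio of 0.08 and a range from -0.35 for RPL11 to 1.04 for LYPLA2. ID2 (chr2:8678845-8684461, plus strand) had KIDINS220 alone, at -0.13. ID4 (chr6:19837370-19842197, plus strand) had none, and the 11 genes within 5 Mb had a median of -0.20. Antisense transcripts overlap ID2 (ID2-AS1, 41 and 50 UMIs in all) and ID4 (AL022068.1, 148 and 156 UMIs), far fewer than the UMIs of either member.

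**Figure D5:**
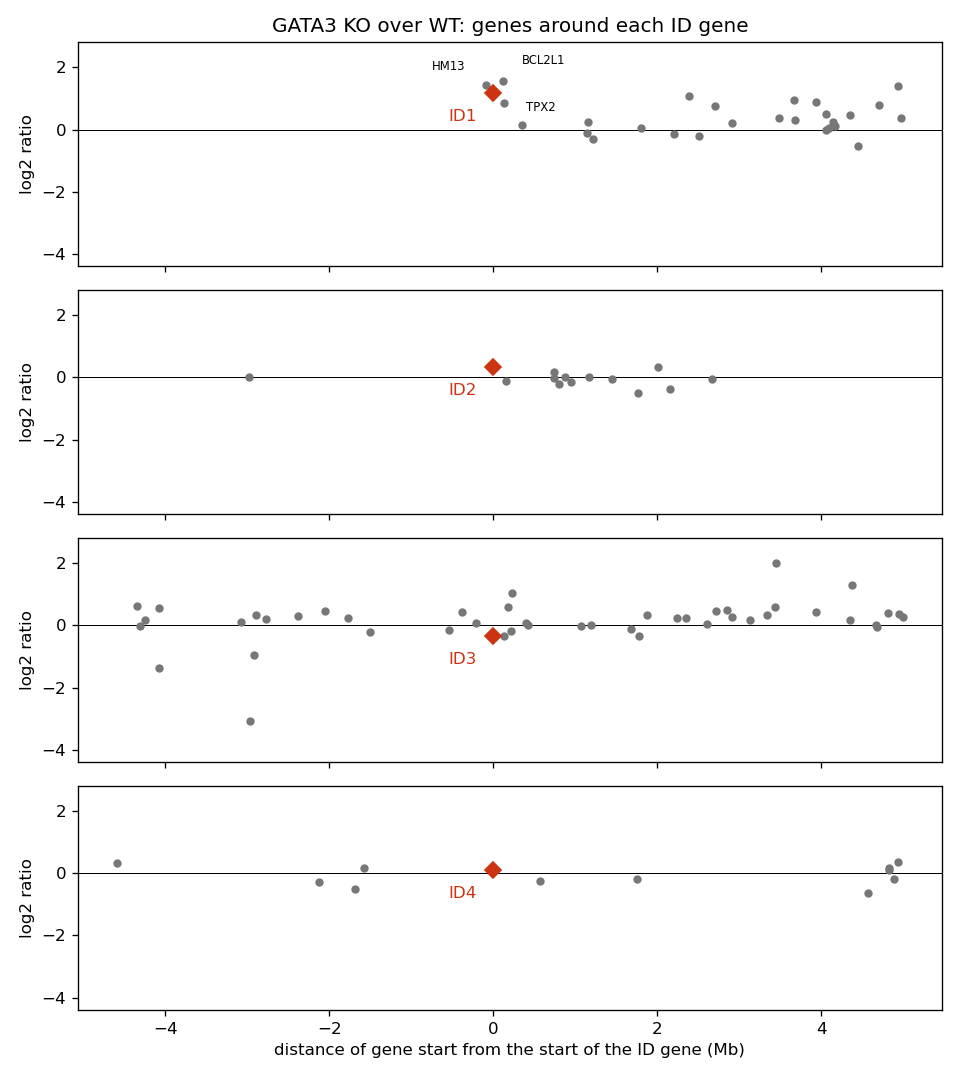
Log2 ratio of GATA3 KO over WT (y axis) of genes with a mean of at least 20 CPM in the libraries by the distance of their start from that of each ID gene (x axis, Mb), with the ID gene as a red diamond. Next to ID1 (1.17) stood HM13, BCL2L1 and TPX2 at 1.42, 1.56 and 0.86, whereas the 8 genes within 500 kb of ID3 had a median of 0.08 and the 1 beside ID2 stood at -0.13.

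HM13 and BCL2L1 were also higher in GATA3 KO within each of the 5 groups, at 1.41 to 1.69 for HM13 and 1.41 to 1.53 for BCL2L1, and TPX2 lay at 0.55 to 0.96. Over cells binned by their counts of ID2, ID3 and ID4, however, these neighbours and ID1 did not have the same pattern. Between the lowest and the highest bin the log2 ratio of HM13 went from 1.25 (1.08 to 1.42) to 1.51 (1.42 to 1.60), that of BCL2L1 from 1.61 to 1.62 and that of TPX2 from 0.82 to 0.93, whereas ID1 rose from 0.37 (0.30 to 0.45) to 1.57 (1.55 to 1.59) over the same cells. In cells with many ID transcripts ID1 thus had about the ratio of HM13 and BCL2L1, and in cells with few it had a lower one. The bins were built from genes that varied with ID1 over cells, more strongly in GATA3 KO. They therefore do not treat ID1 and its neighbours alike. A gain of this part of chromosome 20, 20q11.21, is a well-known change of human pluripotent stem cells in culture. Copy number was not measured here, the study's methods describe the edited line as karyotypically normal, and the part of such a gain in the level of ID1 was not tested.

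The rest of the BMP pathway did not move as ID1 did. Of 28 listed pathway genes, 10 reached 20 CPM, of which 1 was at least 2-fold higher and 1 at least 2-fold lower in GATA3 KO (2.41% and 1.99% of all genes), with a median log2 ratio of -0.17 against 0.07 for all genes. Among ligands, BMP4 rose from 27.8 to 64.8 CPM (1.19, 1.13 to 1.25), the only listed gene of at least 20 CPM with a ratio like that of ID1, and GDF3, a ligand of the TGF-beta family made by pluripotent cells, fell from 25 to 11.7 CPM (-1.03, -1.11 to -0.95) and so reached 20 CPM in WT alone. BMP4 transcripts were concentrated in TFAP2A cells without MIXL1, at 117.5 CPM in WT and 250.5 CPM in GATA3 KO, while SOX2-only cells had 12.2 and 18.2 CPM.

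Among receptors, BMPR1A, a type I receptor for BMP4, was at 63.2 and 40.7 CPM (-0.62, -0.67 to -0.57), and ACVR2B, a type II receptor, at 87.1 and 107.1 CPM (0.30, 0.26 to 0.33). Of the SMADs that carry the signal, SMAD5 was at -0.29 (-0.34 to -0.24) and SMAD4 at 0.03 (-0.03 to 0.10). Under 20 CPM, SMAD1 was at 0.46 (0.38 to 0.55) and SMAD9 at 0.61 (0.44 to 0.78). Among inhibitors, BAMBI was at -0.33 (-0.37 to -0.30), the ubiquitin ligase SMURF2 at -0.26 (-0.34 to -0.19) and the secreted antagonist FST at 0.10 (0.06 to 0.14). SMAD7, an inhibitory SMAD that BMP signals induce, was under 20 CPM, at 8.79 and 4.0 CPM (-0.97, -1.09 to -0.84), and so was SMAD6 at 5.66 and 3.77 CPM (-0.48, -0.62 to -0.35). Of the 5 other BMP targets only MSX2 reached 20 CPM, at 40.3 and 38.3 CPM (-0.07, -0.13 to -0.02). Under 20 CPM, its relative MSX1 was at 8.17 and 14.1 CPM (0.72, 0.61 to 0.82) and the homeobox gene DLX5 at 4.03 and 10.7 CPM (1.22, 1.10 to 1.35). Over all kept cells genes that BMP signals induce thus lay on both sides of 0. The sign of several of them depended on the cells compared. In cells without SOX2 the ratio was 1.35 (1.28 to 1.42) for MSX2, 0.79 (0.74 to 0.83) for BAMBI and 0.63 (0.41 to 0.84) for SMAD6. SMAD7 stayed below 0 there, at -0.35 (-0.59 to -0.12). In TFAP2A cells without MIXL1 it was 0.37 (0.27 to 0.47) for MSX2, -0.47 (-0.53 to -0.41) for BAMBI and -0.35 (-0.68 to -0.01) for SMAD7.

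The E proteins that ID proteins bind were measured as well. TCF3, which encodes E12 and E47, went from 65.6 to 88.7 CPM (0.43, 0.39 to 0.47). TCF4 went from 89.0 to 76.3 CPM (-0.22, -0.26 to -0.18) and TCF12 from 21.9 to 19.6 CPM (-0.15, -0.23 to -0.08). None was past 2-fold, and all 3 moved less than ID1.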

How the data were processed

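For each library 2 kinds of file were used, both as deposited: a matrix of UMI counts per gene and cell, and the lists that name its genes and cells. The authors made the counts from 10x Genomics 3′ (version 3 chemistry) libraries with Cell Ranger 3.0.2 on GRCh38, without further normalisation. The protocol text of the WT library names a shorter exposure than its title and characteristics, which give 48 h, and these were used. Cells of over 7500 genes or over 25% mitochondrial counts were left out. Levels are CPM of UMIs summed over cells with exact Poisson intervals, and a log2 ratio has 1 CPM added to both levels and an interval from the exact binomial split of both counts. Since tags of 3′ libraries count molecules, CPM was not divided by gene length. Detection, correlation and spread were measured after drawing 10000 UMIs from each cell. Depth was 99587274 UMIs over kept WT cells and 175285931 over kept GATA3 KO cells. Doublets were not removed, because the caller (Scrublet in scanpy 1.11.5) marked 1 and 2 cells and so had not worked; an alternative left out the 116 and 310 cells with the highest scores. No test across genes was run, because each genotype had 1 library. The functions were tested on simulated data. Python 3.11.15, scipy 1.17.1 and edgeR 4.0.16 (for TMM scaling alone) were used. Genes were named by a rule: the members, their E proteins, a BMP pathway list, genes within 500 kb, the 5 genes most correlated with each member, and the grouping genes. The members, the lists and the view over 5 Mb were chosen with earlier results of these data known. Promoter sequences and their coordinates come from RefSeq (GRCh38.p14), where all 4 members matched, and gene coordinates from GENCODE on GRCh38. Alternatives covered the limits on cells, doublets, scaling, pseudocount, depth and detection.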

Additional observations from a re-analysis of the deposited data

Results flagged for a closer look

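In 2 splits of the cells ratios had opposite signs in complementary cells with both intervals clear of 0, and neither difference was tested, since each genotype had 1 library. For ID3 the log2 ratio of GATA3 KO over WT was -0.14 (-0.16 to -0.12) in cells with SOX2 detected and 0.26 (0.24 to 0.28) in cells without. MIXL1 was detected in 32.9% of WT cells and 2.13% of GATA3 KO cells, and ID3 was below 0 in each of the 5 groups that do not overlap. For ID4 the log2 ratio was 0.23 (0.17 to 0.30) in cells with TFAP2A detected and -0.24 (-0.29 to -0.19) in cells without. TFAP2A itself was at 94.7 CPM in WT and 170.5 CPM in GATA3 KO in TFAP2A cells without MIXL1, so cells called by detection were not alike in the libraries. The part of this mixture in either split was not tested.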

How the results depend on the processing

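With 1 library per genotype the spread between libraries is unknown. Depth moved the shares of cells, the correlations and the Fano factors. No paired analysis was possible because each genotype had 1 library and no test was made. The departure of ID1 was above 0 under all 8 alternatives (1.09 to 1.44), and within each cell group under all that could be computed. Over all deposited cells the log2 ratios were 1.01 for ID1, 0.15 for ID2 and -0.050 for ID4, which changed sign. There the departure was 1.26, its lowest value over the 5 groups 1.08, and the Fano factor of ID1 in GATA3 KO 8.08. TMM scaling gave -0.35 for ID3. The mean of per-cell CPM gave 1.04 (ID1), -0.45 (ID3) and 0.048 (ID4), and a departure of 1.37. The departure was 1.13 from the mean of the 3 log2 ratios and 1.44 with groups weighted to the WT mixture. The lowest departure over the 5 groups was 1.22 with at least 2 UMIs and 1.12 without thinning. The difference in the share of cells with ID1 was 1.19 points after thinning to 20000 UMIs, 10.8 with at least 2 UMIs and 0.52 without thinning, and for ID3 it was -2.37, -7.91 and -2.42 points. Thinning to 20000 UMIs gave correlations of ID1 and ID3 of 0.55 in WT and 0.74 in GATA3 KO and Fano factors of ID1 of 5.29 and 16.3. The Pearson correlation of log2(count + 1) was 0.65 in GATA3 KO. In 2 alternatives chosen after seeing the data, cells of over 7500 genes gave 0.86 (ID1), 0.045 (ID2), -0.29 (ID3) and -0.16 (ID4, changed sign) with a departure of 1.09. Cells of over 25% mitochondrial counts gave 0.69, 0.51, -0.80 and -0.044 (ID4, changed sign) with a departure of 1.23. The cause of these shifts was not tested. Alternatives that removed cells under 2000 genes or with the highest doublet scores changed no sign.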
